A study of Mus musculus with 51 samples.

Results

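Receptor chains for cytokines that act on memory and effector T cells were followed through sorted CD8+ T cells of mouse mammary tumors and spleens. The genes were Il7r, Il2rb, Il2rg, Il21r, Il4ra, Il18r1, Il18rap, Il6ra, Il10ra and Ifngr1, chosen by name as chains that receive cytokine signals. All 10 were measured in both deposited tables, as 10 of 10560 genes in the untreated table and 10 of 13458 in the table of tumors under immune checkpoint blockade (ICB).

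Il7r, Il2rb, Il2rg, Il21r and Il4ra belong to the common gamma chain family, in which Il2rg encodes the shared chain and a private chain gives the cytokine specificity. Il7r binds IL-7, a survival signal of naive and resting memory T cells; Il2rb serves IL-2 and IL-15; Il21r and Il4ra bind IL-21 and IL-4. Il18r1 binds IL-18 and Il18rap is its accessory chain, which signals through MyD88, while Il6ra, Il10ra and Ifngr1 bind IL-6, IL-10 and interferon gamma. All but the IL-18 pair signal through Janus kinases and STAT proteins.

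The cells came from AT3-OVA tumors, a mammary carcinoma line carrying ovalbumin as a model antigen, and were sorted by CD103, an integrin subunit that binds epithelial E-cadherin, and CD69, which keeps T cells from leaving tissue. CD103+CD69+ cells (DP below) gave 3, 4, 3 and 3 libraries at weeks 1, 2, 4 and 6, and CD103-CD69+ cells (SP) gave 3, 3, 2 and 3. CD103-CD69- cells (DN) gave 2, 3, 3 and 2 libraries at those weeks. Control spleen gave 3 libraries each of the subsets labelled EM, CM and Naive; every spleen library also carries the labels AT3-OVA and tumor infiltrating T cells. Tumors under ICB, whose agents the labels do not name, gave 3 DP, 3 SP and 2 DN libraries in a table of their own, so ICB was not compared with untreated tumors. These libraries are labelled day 40, and their titles do not say from when the days are counted. Mouse strain and age were not given in the labels used here, and the labels do not say whether a replicate is 1 animal or a pool. The p-values then measure only the spread between these samples, which may be technical.

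Values are the authors' normalized values, read as log2, from 3' tag libraries that read near the transcript end and do not separate isoforms. Library medians in the untreated table ran between 8.21 and 8.39 and depth is unknown. A level in these tables is not an abundance, since values ran from -31.9 to 41.5 in the untreated table, so only differences within a gene are read below. Transcripts of the sort markers moved with the sort: Itgae, encoding CD103, was 2.82 higher in DP than DN cells and 1.11 higher in DP than SP cells, and Cd69 was 0.78 higher in DP than DN cells (limma, adjusted p below 0.05 in each). Among libraries of a group, DN week 4 replicates 1 and 2 stood apart by their closeness, with a median absolute difference of 0.0191 over genes against 0.0882 for the next closest of 42 pairs; results that change when they are averaged are named where they arise.

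Where the receptor genes lie is part of how they were compared, since Il18r1 and Il18rap are neighbours on chromosome 1 (40465552 to 40500854 and 40515362 to 40551705, both plus strand, GRCm38), 14.5 kb apart. Il4ra and Il21r are neighbours on chromosome 7 (125552120 to 125579474 and 125603429 to 125633570, both plus strand), 24 kb apart. RefSeq promoter windows (GRCm38.p6, 250 bases before to 50 after a gene start) matched 8 of the 10 genes, all but Il2rb and Il10ra. Both neighbour pairs and Il7r are shown. The windows of Il6ra, Ifngr1 and Il2rg are not shown, although those genes are also called between subsets below. Capitals mark matches, on either strand, to 5 motif strings: TGTTTAC of forkhead factors, CCGGAAG of ETS factors, CTTTGAA of TCF/LEF factors, TCACACC of T-box factors and TGTGGT of RUNX factors.
Il18r1, chr1:40465302-40465601, plus strand: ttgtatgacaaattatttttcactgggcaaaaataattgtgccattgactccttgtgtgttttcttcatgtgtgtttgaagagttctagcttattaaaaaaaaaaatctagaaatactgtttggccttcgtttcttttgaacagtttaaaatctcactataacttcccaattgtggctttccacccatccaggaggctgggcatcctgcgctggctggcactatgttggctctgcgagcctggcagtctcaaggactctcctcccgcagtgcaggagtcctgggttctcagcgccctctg
Il18rap, chr1:40515112-40515411, plus strand: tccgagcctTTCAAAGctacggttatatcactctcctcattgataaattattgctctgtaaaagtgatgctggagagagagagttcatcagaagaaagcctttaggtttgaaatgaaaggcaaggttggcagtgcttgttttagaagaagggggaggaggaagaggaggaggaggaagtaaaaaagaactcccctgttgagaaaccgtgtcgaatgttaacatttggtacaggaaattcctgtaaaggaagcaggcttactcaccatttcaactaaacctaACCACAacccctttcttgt
Il4ra, chr7:125552021-125552320, plus strand: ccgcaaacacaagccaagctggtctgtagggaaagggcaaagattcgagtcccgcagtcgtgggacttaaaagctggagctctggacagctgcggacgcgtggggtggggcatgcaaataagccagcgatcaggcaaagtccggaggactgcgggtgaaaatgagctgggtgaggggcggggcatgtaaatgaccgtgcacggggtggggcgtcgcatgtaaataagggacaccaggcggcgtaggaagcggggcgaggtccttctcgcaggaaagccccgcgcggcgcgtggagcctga
Il21r, chr7:125603179-125603478, plus strand: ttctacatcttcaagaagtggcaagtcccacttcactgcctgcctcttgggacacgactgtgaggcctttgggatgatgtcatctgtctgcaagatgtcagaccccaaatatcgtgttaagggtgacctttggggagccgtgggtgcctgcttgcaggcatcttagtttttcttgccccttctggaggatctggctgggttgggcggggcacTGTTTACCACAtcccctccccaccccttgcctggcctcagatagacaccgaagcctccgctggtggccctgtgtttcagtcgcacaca
Il7r, chr15:9529827-9530126, minus strand: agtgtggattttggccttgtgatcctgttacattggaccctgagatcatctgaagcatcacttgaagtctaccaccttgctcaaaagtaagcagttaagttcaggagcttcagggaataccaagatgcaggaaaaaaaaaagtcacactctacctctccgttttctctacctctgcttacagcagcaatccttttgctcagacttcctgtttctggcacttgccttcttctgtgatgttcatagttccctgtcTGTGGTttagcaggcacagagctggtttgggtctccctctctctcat
The Il18rap window held the TCF/LEF string at -241 and the RUNX string at +31, both on the minus strand, and the Il7r window held the RUNX string at +3. In the Il21r window the forkhead string at -38 overlapped the RUNX string on the minus strand at -33. Neither the Il18r1 window at its first annotated start nor the Il4ra window held any of the 5 strings; of the other 2 Il18r1 windows, at later starts and not shown, the one from 40465371 to 40465670 held the RUNX string at +21. Of 32851 RefSeq windows of this length, 3.65% held the forkhead string, 8.86% the ETS string, 5.14% the TCF/LEF string, 3.98% the T-box string and 16.8% the RUNX string, so these matches describe letters and not sites.

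**Figure D1:**
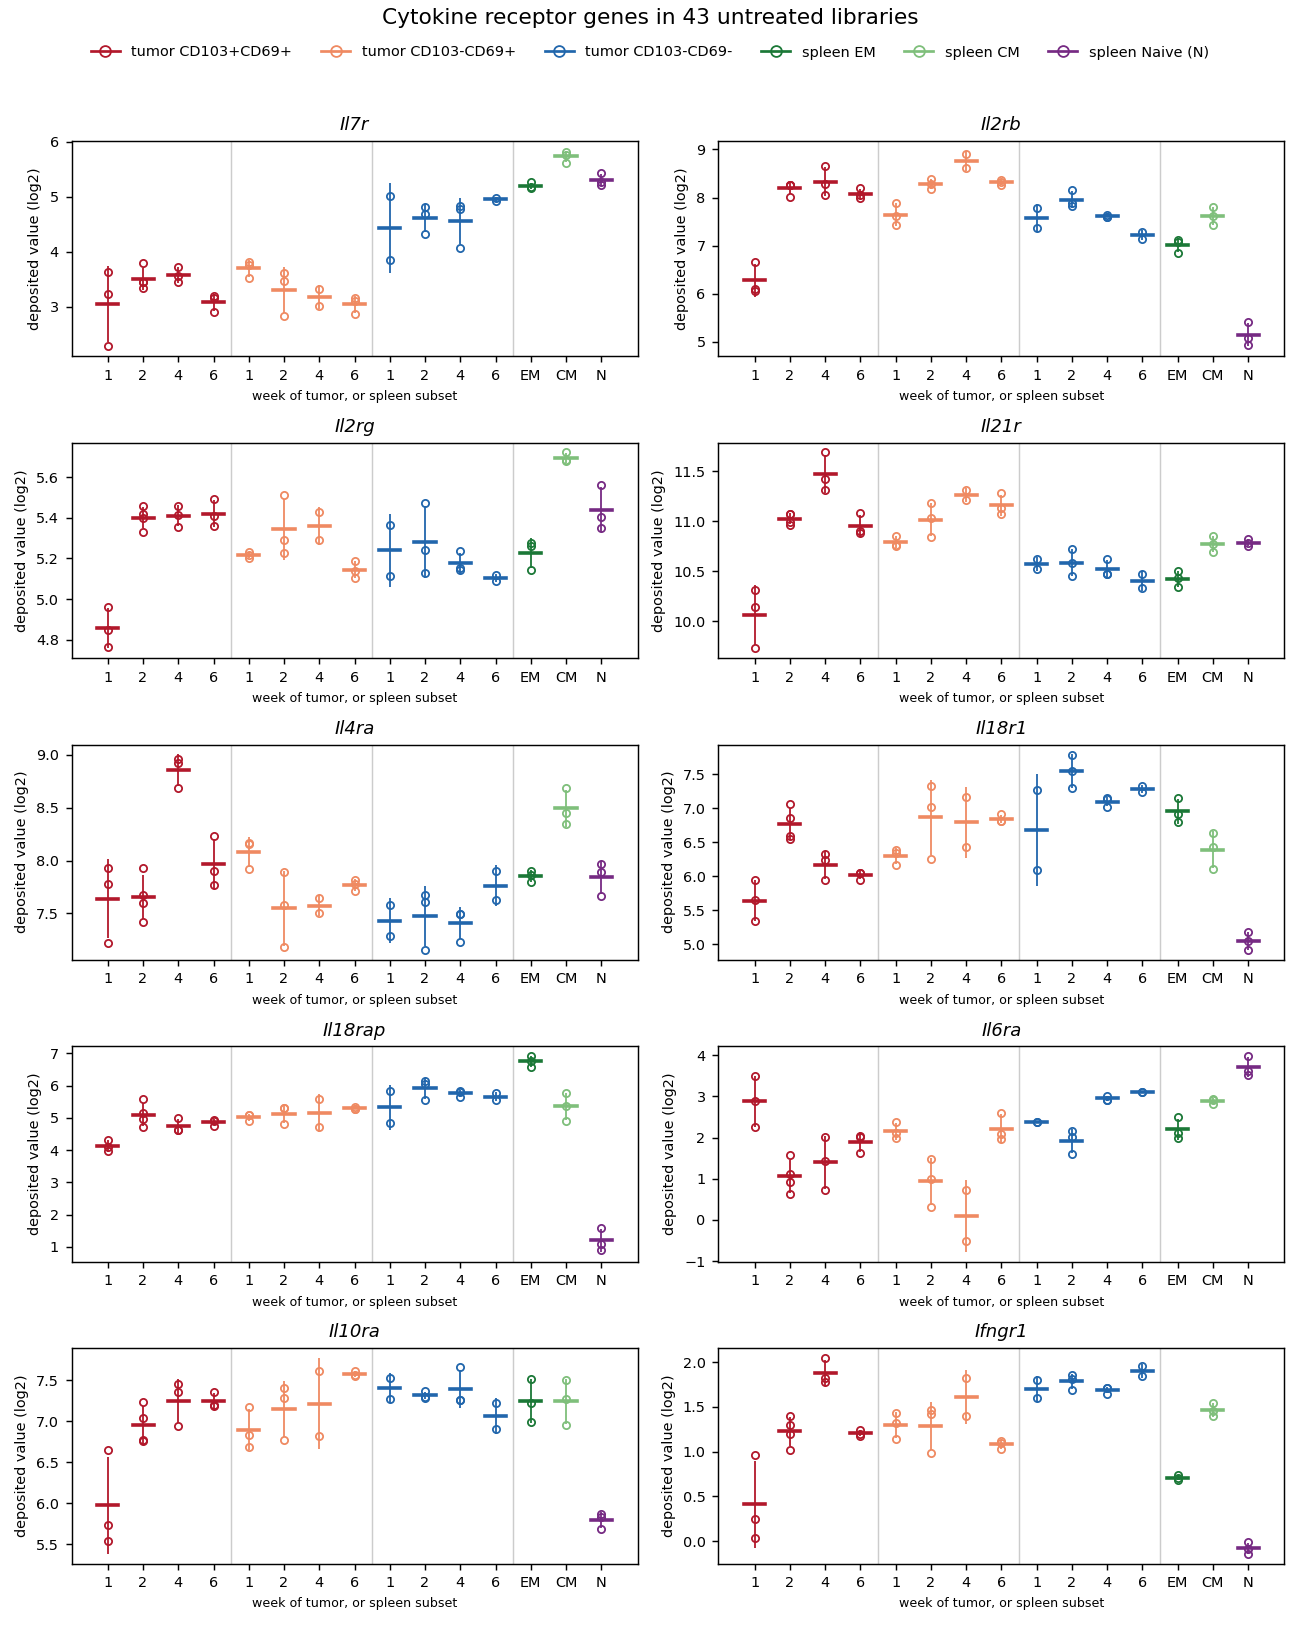
Deposited log2 values (vertical axis) of the 10 receptor genes in 43 untreated libraries, by week of tumor for DP, SP and DN cells and by spleen subset. Circles are libraries, bars group means and vertical lines 1 SD; the 13 DP libraries for Il7r lie between 2.29 and 3.80 and all 10 DN libraries lie above them.

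In untreated tumors, DP cells were compared with DN cells to ask how the receptors differ with both residency markers. Il7r, Il18r1, Il18rap, Il6ra, Il10ra and Ifngr1 were lower in DP cells, and Il21r and Il4ra were higher. The signalling chains of the IL-15 receptor, Il2rb and Il2rg, did not pass the test over the 4 weeks together. Of the 10 genes 8 passed, 2 higher and 6 lower, where 19.5% of all genes passed, 8.81% higher and 10.7% lower. The median difference of the 10 genes was -0.51 and that of all genes -0.01.

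Il7r, the IL-7 receptor chain, had 2.29, 3.45 and 3.80 as its lowest, median and highest value in 13 DP libraries, against 3.86, 4.80 and 5.02 in 10 DN libraries. No DP library reached the lowest DN library. The difference of week-weighted means was -1.33 ± 0.16 (SE; limma, adjusted p = 8.76e-06). Il21r ran over 9.73, 10.998 and 11.69 in DP libraries and over 10.33, 10.50 and 10.72 in DN libraries, so that the DN range lay inside the DP range, and the difference was 0.36 ± 0.08 (limma, adjusted p = 0.00186). For Il4ra the DP values were 7.22, 7.90 and 8.96 and the DN values 7.15, 7.54 and 7.90, with overlap. Its difference was 0.51 ± 0.11 (limma, adjusted p = 0.00249). The gap was widest at week 4, with means of 8.86 in DP and 7.41 in DN cells. Those means were 7.64 and 7.43 at week 1, 7.66 and 7.48 at week 2, and 7.97 and 7.76 at week 6.

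The IL-18 receptor chains were both lower in DP cells. Il18r1, the IL-18 binding chain, had 5.34, 6.06 and 7.06 in DP libraries and 6.10, 7.25 and 7.79 in DN libraries, a difference of -1.0 ± 0.15 (limma, adjusted p = 7.41e-05). Il18rap, its accessory chain, had 3.97, 4.75 and 5.58 in DP libraries and 4.83, 5.78 and 6.14 in DN libraries, a difference of -0.95 ± 0.15 (limma, adjusted p = 0.000154). The ranges overlapped for both chains, and their differences were close in size.

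Of the remaining receptors, Ifngr1, the ligand-binding chain for interferon gamma, had 0.03, 1.20 and 2.05 in DP libraries and 1.59, 1.76 and 1.96 in DN libraries. The DP range was wide and the DN range narrow and inside it, with a difference of -0.59 ± 0.10 (limma, adjusted p = 0.000297). Il6ra, the IL-6 binding chain, had 0.62, 1.62 and 3.49 in DP libraries against 1.59, 2.65 and 3.12 in DN libraries, a difference of -0.78 ± 0.20 (limma, adjusted p = 0.00813). Il10ra, the IL-10 binding chain, had 5.54, 7.04 and 7.45 in DP libraries and 6.91, 7.28 and 7.66 in DN libraries, a difference of -0.44 ± 0.14 (limma, adjusted p = 0.0336). The low end of the Il10ra range came from week 1, and its call was lost without DN week 1 replicate 2 (adjusted p = 0.0723), DN week 6 replicate 1 (0.0736), DP week 1 replicate 1 (0.0501) or DP week 4 replicate 2 (0.0534), and after quantile scaling (0.0511) or median rescaling (0.0522). Il2rb differed by 0.13 ± 0.10 (adjusted p = 0.392) and Il2rg by 0.07 ± 0.06 (adjusted p = 0.406).

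Run and subset moved together. The codes in the deposited library names fall into runs, and codes 5 to 42 hold 11 DP, 10 SP and 9 spleen libraries and no DN library, while codes 46 to 61 hold 2 DP, 1 SP and 7 DN libraries and codes 72 to 75 hold 3 DN libraries. What a code run stands for is not given in the labels. With the run as a term in the fit, Il7r (-1.52 ± 0.30, adjusted p = 0.0101), Il18r1 (-1.13 ± 0.29, 0.0468) and Il18rap (-1.16 ± 0.29, 0.0457) were still called lower in DP than DN cells. Il21r (0.41, adjusted p = 0.157), Il4ra (0.65, 0.104), Il6ra (-0.97, 0.224), Il10ra (-0.32, 0.661) and Ifngr1 (-0.54, 0.164) kept their sign and lost the call. Inside codes 46 to 61, with 1 DP library against the DN libraries of its week and no test, Il7r differed by -1.16 at week 2 and -1.79 at week 6, Il18r1 differed by -1.0 and -1.23, and Il18rap by -1.19 and -0.76.

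Markers of other cells and states moved with this comparison too. Of 6 genes of naive and circulating cells, among them Ccr7, Lef1 and Tcf7, 4 were lower in DP than DN cells, with a median difference of -1.27. Of 15 T-cell identity genes 8 were lower and 1 higher (median -0.28), of 9 measured myeloid genes 4 were higher (median 0.45), of 6 tumor epithelial genes 2 were higher (median 0.73) and of 4 genes of CD4+ and regulatory T cells 2 were higher (median 0.69). Their part in the receptor differences was not tested. In bulk samples fewer cells of a type and less RNA per cell cannot be told apart.

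By the sort, SP cells share CD69 with DP cells and lack CD103, although their Itgae transcript was 1.71 higher than in DN cells. Against DN cells, Il7r, Il18r1, Il18rap, Il6ra and Ifngr1 were again lower, and Il2rb and Il21r were higher. These were 7 of the 10 genes, 2 higher and 5 lower, where 19.4% of all genes passed, 11% higher and 8.32% lower. The median difference of the 10 genes was -0.27, against 0.03 over all genes.

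Il7r had 2.84, 3.34 and 3.82 in 11 SP libraries against 3.86, 4.80 and 5.02 in DN libraries, a difference of -1.33 ± 0.17 (limma, adjusted p = 1.79e-05). Il21r had 10.75, 11.07 and 11.31 in SP libraries against 10.33, 10.50 and 10.72 in DN libraries, a difference of 0.54 ± 0.08 (limma, adjusted p = 7.46e-05). In both genes the SP and DN libraries did not overlap. Il2rb, the signalling chain for IL-2 and IL-15, had 7.43, 8.28 and 8.91 in SP libraries and 7.14, 7.62 and 8.16 in DN libraries, and its difference of 0.66 ± 0.11 passed (limma, adjusted p = 0.000192) although the ranges overlapped.

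Il6ra had -0.52, 1.96 and 2.61 in SP libraries and 1.59, 2.65 and 3.12 in DN libraries, with a difference of -1.24 ± 0.21 (limma, adjusted p = 0.000322). Ifngr1 had 0.98, 1.32 and 1.83 in SP libraries and 1.59, 1.76 and 1.96 in DN libraries, with a difference of -0.45 ± 0.10 (limma, adjusted p = 0.00495). Both ranges overlapped. The IL-18 receptor chains differed less than in the DP comparison, Il18r1 by -0.45 ± 0.15 (limma, adjusted p = 0.0434) and Il18rap by -0.52 ± 0.16 (limma, adjusted p = 0.0269). The Il18r1 call was lost in 11 of 21 fits that left out 1 library, up to an adjusted p of 0.137 without DN week 1 replicate 2, and with the near-identical DN libraries averaged (0.0538). Il18rap lost its call without DN week 1 replicate 2 (0.0817) or SP week 4 replicate 2 (0.084). Il4ra (0.22, adjusted p = 0.181), Il10ra (-0.08, 0.734) and Il2rg (0.07, 0.462) did not pass. With the code run as a term only Il7r was still called (-1.52, limma, adjusted p = 0.0202). Of the 6 genes of naive and circulating cells 5 were lower in SP than DN cells (median -1.25), whose part was not tested.

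DP and SP cells differ in CD103. Il2rb and Il18r1 were lower in DP than SP cells, 0 and 2 of the 10 genes being called higher and lower, where 3.48% of all genes passed and 2.72% were lower. Il2rb had 6.06, 8.06 and 8.66 in DP libraries against 7.43, 8.28 and 8.91 in SP libraries, and its difference was -0.53 ± 0.10 (limma, adjusted p = 0.00385). Il18r1 had 5.34, 6.06 and 7.06 in DP libraries against 6.16, 6.81 and 7.32 in SP libraries, a difference of -0.55 ± 0.14 (limma, adjusted p = 0.035). The ranges overlapped in both, and the low end of each DP range lay in week 1. Il7r differed by -0.0022 ± 0.16 between DP and SP cells, so the interval of 1 SE on either side spans a small rise and a small fall. Il18r1 lost its call without SP week 2 replicate 1 (adjusted p = 0.0531), SP week 4 replicate 1 (0.091) or DP week 4 replicate 2 (0.0541), and after quantile scaling (0.0623) or median rescaling (0.0601). Those scalings also moved the share of called genes that were higher: 22% as deposited, 34.3% after quantile scaling and 34.5% after median rescaling. Of the 15 T-cell identity genes 12 were lower in DP than SP cells, and their part was not tested.

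**Figure D2:**
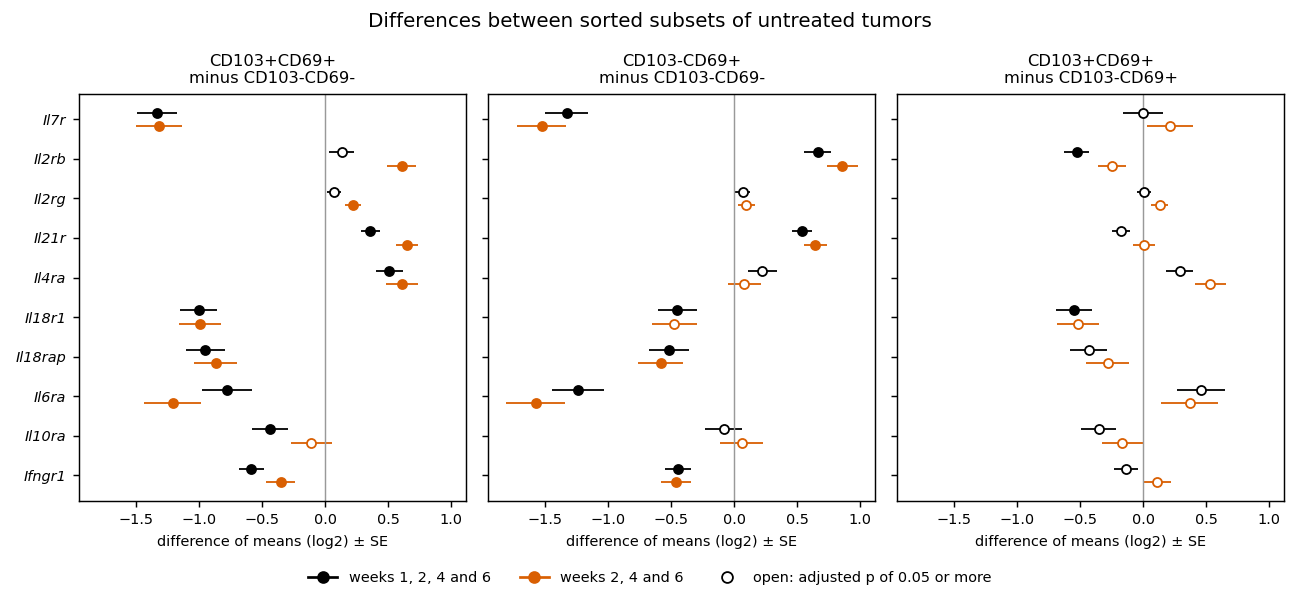
Differences of group means (horizontal axis, log2) with 1 SE for the 10 receptor genes: DP minus DN, SP minus DN and DP minus SP cells. Black points use weeks 1, 2, 4 and 6 and orange points weeks 2, 4 and 6; open points have an adjusted p of 0.05 or more. Il7r lies at -1.33 against DN cells in both CD69+ subsets and near 0 between them.

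Week 1 DP libraries stood apart. They had the largest median SD within a group (0.289), and 15 T-cell identity genes, centred on their means over all libraries, averaged -0.74 there (-0.78 to -0.71 over the 3 libraries), against -0.06 in DN and -0.05 in SP libraries of that week. The 6 tumor epithelial genes averaged 2.66 in week 1 DP libraries (2.21 to 3.05) and 1.97 in SP libraries, against -1.05 in DN libraries. The comparisons among tumor subsets, and those of tumor subsets with spleen EM cells, are therefore also given without week 1.

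Over weeks 2 to 6, 9 of the 10 genes passed between DP and DN cells, where 23.3% of all genes passed, 9.8% higher and 13.5% lower. The code run, which moved with the subset, was not fitted as a term over weeks 2 to 6 alone. Il2rb (0.61, limma, adjusted p = 0.000665) and Il2rg (0.22, 0.0151) were now called higher in DP cells beside Il21r (0.65, 1.61e-05) and Il4ra (0.61, 0.00137). Taken singly, only week 4 gave a call for Il4ra. Il7r (-1.32, 3.04e-05), Il18r1 (-0.99, 0.000224), Il18rap (-0.87, 0.00105), Il6ra (-1.21, 0.000599) and Ifngr1 (-0.35, 0.0279) were lower, and Il10ra was not called (-0.11, adjusted p = 0.666). Between SP and DN cells 6 of the 10 passed over those weeks, where 17% of all genes passed, 8.33% higher and 8.64% lower; Il18r1 was no longer called (-0.48, adjusted p = 0.0691). Between DP and SP cells none of the 10 passed by limma over weeks 2 to 6, where 0.417% of all genes passed. An unadjusted p below 0.05 was held by 3 of the 10 and by 1610 of 10560 genes. Il4ra came nearest to passing, at 0.53 higher in DP cells (limma, adjusted p = 0.0546).

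The weeks were compared to ask whether the receptors moved as the tumors aged. In DP cells 5 of the 10 genes were higher at week 6 than at week 1: Il2rb, Il10ra, Il21r, Ifngr1 and Il2rg, where 25% of all genes passed and 15.6% were higher. No gene of the 10 was called lower as deposited, and 1 was after quantile scaling or median rescaling. The share of all called genes that were higher was 62.5% as deposited, 52.3% after quantile scaling and 46% after median rescaling, with the same count of 5 receptor genes higher under each.

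Il2rb in DP cells had 6.09, 6.06 and 6.67 at week 1, then 8.26, 8.01, 8.27 and 8.25 at week 2, 8.06, 8.28 and 8.66 at week 4, and 8.04, 7.997 and 8.20 at week 6. Every later library lay above every week 1 library, and the week 6 minus week 1 difference was 1.80 (limma, adjusted p = 1.91e-06). Il21r had 10.14, 9.73 and 10.31 at week 1, 11.08, 10.96, 11.08 and 10.998 at week 2, 11.42, 11.32 and 11.69 at week 4, and 10.91, 10.88 and 11.08 at week 6 (week 6 minus week 1 0.89, limma, adjusted p = 0.000133). Its highest libraries were those of week 4. Il10ra had 5.54, 5.73 and 6.65 at week 1 and 7.19, 7.19 and 7.36 at week 6, a difference of 1.27 (limma, adjusted p = 0.00175). Ifngr1 had 0.03, 0.96 and 0.24 at week 1 and 1.20, 1.18 and 1.24 at week 6, a difference of 0.79 (limma, adjusted p = 0.00442), which was not called when those groups were fitted alone (adjusted p = 0.069). Il2rg, the shared gamma chain, had 4.76, 4.85 and 4.96 at week 1 and lay between 5.33 and 5.49 in every later DP library, a difference of 0.56 at week 6 (limma, adjusted p = 0.000744). In these 3 genes too, the week 1 libraries lay below those of week 6. Tumor epithelial genes fell over the same interval in DP cells, 4 of 6 being called lower (median -2.34), and their part was not tested.

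Neither SP nor DN cells gave a called receptor gene between weeks 6 and 1. In SP cells 2.72% of all genes passed by limma. An unadjusted p below 0.05 was held by 4 of the 10 receptor genes and by 1789 of 10560 genes. Il2rb differed by 0.67 (limma, adjusted p = 0.0635) and Il10ra by 0.68 (0.193). In DN cells 5.79% of all genes passed and no receptor gene had an unadjusted p below 0.05, against 2295 of 10560 genes. The median of all genes was 0.125 higher at DN week 6 than week 1, and the share of called genes that were higher was 86.1% as deposited, 59.3% after quantile scaling and 67.6% after median rescaling. With week 1 set aside, no receptor gene was called between weeks 6 and 2 in any subset. Of all genes 0.246% were called in DP, 0.644% in SP and 0.72% in DN cells. In that order, 2, 1 and 2 receptor genes had an unadjusted p below 0.05, beside 1401, 1311 and 1395 of 10560 genes. The shares of called genes that were higher there were 80.8%, 76.5% and 73.7% as deposited, 36.5%, 57.4% and 53.4% after quantile scaling, and 48.8%, 70.4% and 67.2% after median rescaling.

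Whether the subset differences after week 1 departed from those at week 1 was tested directly. Between DP and DN cells 6 of the 10 genes changed their difference, 5 upward and 1 downward, where 25.8% of all genes passed, 11.4% upward and 14.3% downward. The changes, weeks 2 to 6 minus week 1, were 1.91 for Il2rb, 1.32 for Il10ra, 1.16 for Il21r, 0.93 for Ifngr1, 0.61 for Il2rg and -1.71 for Il6ra (limma, adjusted p between 1.45e-05 and 0.0122). Without DN week 1 replicate 1, which leaves 1 DN library at that week, the changes were -1.71 for Il6ra and 0.83 for Ifngr1 and neither was called (adjusted p = 0.0575 and 0.0624). With the code run as a term Il2rb (1.93, adjusted p = 0.00277) and Il21r (1.02, 0.0224) were still called. Between DP and SP cells 5 genes changed upward, where 14.7% of all genes passed and 9.02% did so upward: Il2rb (1.12), Ifngr1 (0.99), Il4ra (0.97), Il21r (0.73) and Il2rg (0.49), with adjusted p between 0.00242 and 0.0133 (limma). Between SP and DN cells none was called by limma, where 6.53% of all genes passed. An unadjusted p below 0.05 was held by 4 of the 10 and by 2290 of 10560 genes. The share of called genes that were higher was 22.5% as deposited, 36.6% after quantile scaling and 36.5% after median rescaling. For DP against SP cells that share was 61.2% as deposited and 48.6% after median rescaling.

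Week by week, the DP and DN cells differed in opposite ways at the start and later for Il2rb and Il21r. At weeks 1 and 4 all DP and SP libraries had codes 5 to 42 and no DN library did. The same held for SP cells at week 2, so run and subset cannot be told apart in these comparisons. The code run was not fitted as a term in single weeks. At week 1, 8 of the 10 genes were lower in DP cells, where 22.7% of all genes passed and 10.9% were lower. Il2rb was -1.30 (limma, adjusted p = 0.000235), Il10ra -1.43 (0.00194), Ifngr1 -1.29 (0.000235), Il21r -0.51 (0.0267) and Il2rg -0.38 (0.0273), beside Il7r (-1.39, 0.00634), Il18rap (-1.19, 0.0115) and Il18r1 (-1.04, 0.0218). In the same libraries 10 of 15 T-cell identity genes were lower (median -0.71) and 4 of 6 tumor epithelial genes higher (median 4.67) in DP cells, and their part was not tested. At week 2 no receptor gene was called by limma, where 0.814% of all genes passed. An unadjusted p below 0.05 was held by 6 of the 10 and by 1472 of 10560 genes. Il7r came to -1.10 (limma, adjusted p = 0.0671). The share of called genes that were higher at week 2 was 32.6% as deposited, 54.9% after quantile scaling and 47.1% after median rescaling.

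At week 4, 7 of the 10 genes passed between DP and DN cells, 3 higher and 4 lower, where 21.9% of all genes passed, 11.1% higher and 10.8% lower. Il4ra had 8.96, 8.69 and 8.93 in DP libraries, against 7.49, 7.50 and 7.23 in DN libraries. Its DP libraries of week 4 lay above all other tumor libraries of the table, and its difference was 1.45 (limma, adjusted p = 0.000137). Il21r was 0.95 higher (0.000157) and Il2rb 0.72 higher (0.0116), and Il6ra (-1.55, 0.0066), Il18rap (-1.0, 0.0178), Il18r1 (-0.93, 0.0231) and Il7r (-0.98, 0.027) were lower. With the near-identical DN week 4 libraries averaged, 5 genes were called and Il7r and Il18r1 were not. The share of all genes called in that fit is not given here. At week 6, where 3.2% of all genes passed, 1.1% higher and 2.1% lower, Il2rb was 0.86 higher in DP cells (limma, adjusted p = 0.0306), and Il7r (-1.87, 0.00493) and Il18r1 (-1.27, 0.0297) were lower. The share of called genes that were higher at week 6 was 34.3% as deposited and 47.1% after quantile scaling, with 1 receptor gene higher and 2 lower under both.

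SP cells gave no called receptor gene against DN cells at week 1 (7.26% of all genes called) or week 2 (0.464%). Unadjusted limma p-values below 0.05 were held by 2 receptor genes at week 1, beside 2511 of 10560 genes. At week 2 they were held by 6, beside 1207 of 10560 genes. The share of called genes that were higher was 75.5% as deposited and 64.2% after median rescaling at week 1, and 6.12% as deposited and 19.6% after quantile scaling at week 2. At week 4, where 13.6% of all genes passed, 8.81% higher and 4.81% lower, Il2rb (1.15, adjusted p = 0.00181) and Il21r (0.74, 0.00467) were higher and Il7r (-1.38, 0.0111) and Il6ra (-2.85, 0.000381) lower in SP cells (limma). Il6ra had 0.72 and -0.52 in the 2 SP libraries of week 4, against 2.92, 3.01 and 2.92 in DN libraries. At week 6, where 3.02% of all genes passed, 0.975% higher and 2.05% lower, Il2rb (1.10, 0.00655) and Il21r (0.76, 0.0111) were higher, and Il7r (-1.90, 0.00315) and Ifngr1 (-0.82, 0.0401) lower (limma). After quantile scaling 1 receptor gene was lower in place of 2, and the share of called genes that were higher was 44.5% in place of 32.3%. Il7r at week 6 had 2.88, 3.11 and 3.17 in SP libraries and 2.91, 3.19 and 3.16 in DP libraries, against 4.98 and 4.92 in DN libraries, the widest gap between the CD69+ and CD69- cells of any week.

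Calls between DP and SP cells fell mostly at week 1. At that week, 6 of the 10 genes were lower in DP cells (4 after either other scaling), where 17.4% of all genes passed and 11.5% were lower. Il2rb had 6.09, 6.06 and 6.67 in DP libraries against 7.43, 7.62 and 7.89 in SP libraries (-1.37, limma, adjusted p = 6.83e-05), with no overlap. Il21r (-0.73, 0.00155), Ifngr1 (-0.88, 0.00322), Il10ra (-0.92, 0.0228), Il2rg (-0.36, 0.0254) and Il18rap (-0.89, 0.039) were the others. The share of called genes that were higher was 34.1% as deposited and 48.6% after median rescaling. At weeks 2 and 6 no gene of the table passed (0% each), and at week 4, where 0.142% of all genes passed and 0.0758% were higher, Il4ra was the 1 receptor gene called (1.28, limma, adjusted p = 0.0282); it had 8.96, 8.69 and 8.93 in DP libraries and 7.50 and 7.64 in SP libraries. Il18r1 had 6.04, 5.95 and 6.06 in DP libraries of week 6, against 6.81, 6.91 and 6.81 in SP libraries. Those libraries did not overlap and the difference of -0.83 was larger in size than that of week 1 (-0.65), but neither passed (adjusted p = 0.542 and 0.116).

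**Figure D3:**
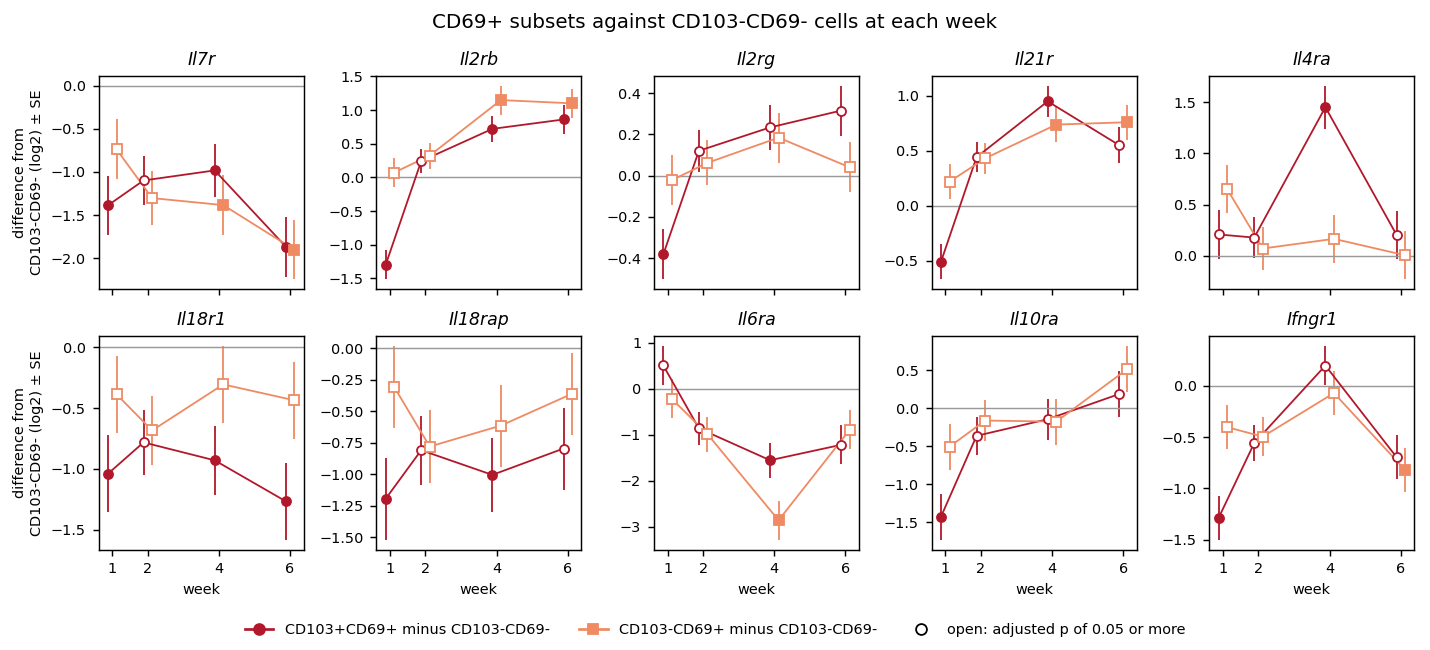
Difference from DN cells of the same week (vertical axis, log2, with 1 SE) at weeks 1, 2, 4 and 6 for each receptor gene, in DP (circles) and SP cells (squares). Filled points have an adjusted p below 0.05. Il7r is below 0 at every week in both subsets, while Il2rb in DP cells lies at -1.30 at week 1 and 0.86 at week 6.

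In control spleen, EM and CM cells differed from Naive cells in most of the receptors. Cd44, a marker of antigen-experienced T cells, was 3.44 higher in EM and 2.84 higher in CM than in Naive cells. Of the 10 receptor genes 6 passed between EM and Naive cells, 5 higher and 1 lower, where 24.6% of all genes passed, 12.6% higher and 12% lower.

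Il18rap had 6.75, 6.91 and 6.59 in EM and 4.92, 5.38 and 5.77 in CM libraries, against 0.90, 1.59 and 1.10 in Naive libraries. The 3 subsets did not overlap, and the EM minus Naive difference of 5.55 ± 0.29 (limma, adjusted p = 8.75e-12) was the widest between any 2 groups of the untreated table for any of the 10 genes. Its partner Il18r1 had 6.92, 7.16 and 6.80 in EM libraries against 5.19, 4.92 and 5.06 in Naive libraries, a difference of 1.90 ± 0.28 (limma, adjusted p = 3.62e-05). Il2rb had 7.07, 6.85 and 7.11 in EM and 7.43, 7.62 and 7.81 in CM libraries, against 5.08, 5.41 and 4.94 in Naive libraries. It was 1.87 ± 0.19 higher in EM than Naive cells (limma, adjusted p = 2.96e-07), and its Naive libraries lay below every other library of the untreated table.

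Il10ra (1.45 ± 0.27, limma, adjusted p = 0.000451) and Ifngr1 (0.78 ± 0.19, 0.0045) were also higher in EM than Naive cells, and Il6ra was lower (-1.50 ± 0.38, 0.00602). Il6ra had 2.12, 2.49 and 1.99 in EM libraries against 3.51, 3.62 and 3.98 in Naive libraries, whose group mean was the highest of the 15 groups. Il7r had 5.16, 5.19 and 5.27 in EM libraries against 5.27, 5.43 and 5.22 in Naive libraries, which overlap, and its difference of -0.10 ± 0.31 did not pass (adjusted p = 0.844). Il2rg (-0.21, adjusted p = 0.165), Il21r (-0.36, 0.071) and Il4ra (0.01, 0.975) did not pass either. Of 5 listed genes of gamma-delta T and NK cells 2 were measured, and both were higher in EM and in CM than in Naive cells; centred on their means, they averaged 1.15 in EM (0.80 to 1.36), 0.68 in CM (0.54 to 0.88) and -1.71 in Naive libraries (-2.46 to -0.69). The 3 measured B-cell genes averaged 1.75 in EM, 0.71 in CM and 0.83 in Naive libraries, and none passed between EM and Naive cells. Their part in the receptor differences was not tested.

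Between CM and Naive cells 6 of the 10 genes were higher, where 18.8% of all genes passed and 10.1% were higher: Il18rap (4.16, limma, adjusted p = 2.13e-09), Il2rb (2.48, 1.12e-08), Ifngr1 (1.54, 7.97e-06), Il10ra (1.45, 0.000799), Il18r1 (1.34, 0.00212) and Il4ra (0.65, 0.0354). The Il4ra call was lost in 4 of 6 fits that left out 1 library, with adjusted p between 0.0638 and 0.126. Il7r had 5.62, 5.77 and 5.82 in CM libraries, the highest of the table, and differed from Naive cells by 0.43 (adjusted p = 0.365).

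EM and CM cells differed in 5 of the 10 genes, 1 higher and 4 lower, where 15.4% of all genes passed, 8.21% higher and 7.19% lower. Il18rap was 1.39 higher in EM cells (limma, adjusted p = 0.00297). Il2rg had 5.26, 5.14 and 5.28 in EM libraries against 5.72, 5.68 and 5.68 in CM libraries, without overlap (-0.47, limma, adjusted p = 0.00614), and Ifngr1 had 0.70, 0.68 and 0.74 in EM libraries against 1.55, 1.46 and 1.40 in CM libraries (-0.76, 0.01). Il2rb (-0.61, 0.0367) and Il4ra (-0.64, 0.0446) lost their calls in 5 of 6 and 6 of 6 fits that left out 1 library, with adjusted p up to 0.131 and 0.125, so that neither call held up to leaving out a library.

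Tumor subsets were set against the spleen EM cells. DP cells differed in 6 of the 10 genes, 3 higher and 3 lower, where 29.7% of all genes passed, 13.8% higher and 16% lower. SP cells differed in 6, again 3 higher and 3 lower, where 29.4% passed, 15.9% higher and 13.5% lower. DN cells differed in 3, with 2 higher and 1 lower, where 20.6% passed, 10.2% higher and 10.5% lower. The 3 comparisons share the same EM libraries.

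Il7r was lower in both CD69+ subsets: 2.29 to 3.80 in DP and 2.84 to 3.82 in SP libraries, against 5.16, 5.19 and 5.27 in EM libraries, with differences of -1.90 (limma, adjusted p = 7.9e-06) and -1.89 (1.2e-05). DN cells, at 3.86 to 5.02, also lay below all EM libraries, but the difference of -0.56 did not pass (adjusted p = 0.115). Il18rap was lower in all 3 subsets, with differences of -2.04 in DP (limma, adjusted p = 1.67e-06), -1.60 in SP (3.82e-05) and -1.09 in DN cells (0.003), and no tumor library reached the lowest EM library, at 6.59. Il18r1 was lower in DP cells (-0.81, 0.0091) and not called in SP cells (-0.26, 0.416).

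Il2rb was higher in all 3 tumor subsets than in EM cells, by 0.71 in DP (limma, adjusted p = 0.00139), 1.24 in SP (7.18e-06) and 0.58 in DN cells (0.0123). Ifngr1 was higher by 0.48 (0.0211), 0.61 (0.00488) and 1.06 (9.37e-05) in DP, SP and DN cells, and Il21r by 0.45 (0.00453) in DP and 0.63 (0.000351) in SP cells. All SP libraries lay above the EM libraries for these 3 genes, and all DN libraries did for Il2rb and Ifngr1. Il6ra was called lower in SP cells (-0.85, 0.0401), a call lost without SP week 4 replicate 2 (0.076) or any 1 of the 3 EM libraries (0.0692 to 0.139), and the Ifngr1 call in DP cells was lost without any 1 of the EM libraries (0.0535 to 0.069). With the code run as a term the DN against EM calls for Il2rb (0.54, adjusted p = 0.253) and Il18rap (-0.85, 0.226) were lost and that for Ifngr1 was not (1.01, 0.0275). Over weeks 2 to 6 the counts were again 6 for DP (3 higher, 3 lower), 6 for SP (3 and 3) and 3 for DN cells (2 and 1), where 29.2%, 30.3% and 19.5% of all genes passed. Of all genes 14%, 16.1% and 10.6% were higher and 15.2%, 14.2% and 8.9% lower. In DP cells leaving out week 1 raised Il2rb to 1.19 (limma, adjusted p = 1.06e-05), Il21r to 0.73 (8.75e-05) and Ifngr1 to 0.73 (0.00127) above EM cells, and the 10 DP libraries of those weeks did not overlap the EM libraries for any of these 3 genes. Il6ra differed by -0.75 (0.0711) in DP and -1.12 (0.0111) in SP cells over those weeks. Tumor epithelial genes were higher than in EM cells in every tumor subset, 5 of 6 in each, with medians of 3.70 in DP, 3.32 in SP and 2.60 in DN cells, and their part was not tested.

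Levels of a gene can be ordered over the 15 groups of the untreated table. For Il7r the order was spleen CM (mean 5.74), Naive (5.31) and EM (5.20), then the DN weeks (4.95 to 4.44), then all DP and SP weeks (3.70 to 3.05). Neighbouring groups inside a block differed by 0.43 or less, against a pooled SD within groups of 0.32. Il2rb ran from SP week 4 (8.76) down to spleen Naive (5.14), with DP week 1 (6.28) next to last. Il18rap ran from spleen EM (6.75) to spleen Naive (1.20), with DP week 1 (4.13) next to last. The narrowest span of group means was that of Il2rg, 0.84, between spleen CM and DP week 1. Il4ra and Il21r, neighbours on chromosome 7, both had their highest mean in DP week 4, at 8.86 and 11.48.

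Under ICB at day 40, Il6ra was lower in both CD69+ subsets than in DN cells. DP libraries had 0.93, 0.92 and 0.92 and SP libraries 0.65, 0.84 and 0.54, against 4.56 and 4.62 in DN libraries. The groups were far apart, with differences of -3.67 ± 0.41 for DP (limma, adjusted p = 0.0147) and -3.91 for SP cells (0.0183). Without the trend option no gene of the table was called in either comparison, and the adjusted p for Il6ra was 0.05 and 0.0806 at the same differences. Il7r had 16.75, 16.76 and 16.77 in DP and 16.38, 16.29 and 16.41 in SP libraries, against 16.39 and 16.36 in DN libraries. It was therefore higher in DP than DN cells, by 0.38 ± 0.07 (limma, adjusted p = 0.0477), the other direction from untreated tumors, although the 2 tables were normalized apart and were not tested against each other.

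These were the called genes between DP and DN cells, 2 of 10, where 7.49% of all genes passed, 4.47% higher and 3.02% lower. By limma 6 of the 10 had an unadjusted p below 0.05, as had 3663 of 13458 genes. The Il7r call was lost in 4 of 5 fits that left out 1 library (adjusted p between 0.0506 and 0.125), after quantile scaling (0.28, adjusted p = 0.131), after median rescaling (0.0557), without the trend option (0.169) and with the near-identical DP replicates 1 and 2 averaged (0.0581). After quantile scaling 0 receptor genes were higher and 2 lower in DP than DN cells, and likewise in SP than DN cells, where the share of all called genes that were higher was 64.5% as deposited and 50.6% after quantile scaling.

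Between SP and DN cells Il6ra and Il18r1 passed, 1 lower and 1 higher, where 3.83% of all genes passed, 2.47% higher and 1.36% lower. By limma 9 of the 10 had an unadjusted p below 0.05, as had 2998 of 13458 genes. Il18r1 had 16.55, 16.56 and 16.49 in SP libraries, against 16.12 and 16.12 in DN libraries, with no overlap. The difference was 0.42 (limma, adjusted p = 0.0477), the other direction from untreated tumors (-0.45). As for Il7r, the 2 tables were not tested against each other. After quantile scaling the difference was 0.14 (limma, adjusted p = 0.416), and without the trend option its adjusted p was 0.184. Without either DN library the Il18r1 call (0.13 and 0.121) and the Il6ra call (0.0552 and 0.0561) were lost. No receptor gene was called between DP and SP cells by limma, where 0.0372% of all genes passed. Of the genes called, 20% were higher as deposited and 37.5% after median rescaling. An unadjusted p below 0.05 was held by 5 of the 10 and by 1733 of 13458 genes.

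Il2rb had 13.52, 13.53 and 13.61 in DP and 13.75, 13.77 and 13.62 in SP libraries, against 13.42 and 13.42 in DN libraries. Il21r had 11.996, 12.05 and 12.18 in DP and 12.06, 11.75 and 12.01 in SP libraries, against 11.65 and 11.54 in DN libraries. In both genes every CD69+ library lay above the DN libraries, but neither passed (DP minus DN 0.13, adjusted p = 0.369, and 0.48, 0.0942). Ifngr1 lay lower in the CD69+ libraries, 13.74 to 13.76 in DP and 13.59 to 13.78 in SP, against 14.05 and 14.02 in DN, and did not pass (-0.28, 0.105, and -0.34, 0.0938). Il2rg had 12.05 to 12.12 in DP, 11.95 to 12.06 in SP and 11.80 to 11.84 in DN libraries. Il18rap had 12.70 to 12.72, 12.87 to 13.15 and 12.59 to 12.65 in those subsets. In both genes every CD69+ library lay above the DN libraries. Il10ra had 12.10 to 12.27, 12.53 to 12.92 and 11.97 to 12.10, with only SP apart from DN cells. Il4ra had 9.84 to 10.19, 9.14 to 9.66 and 9.94 to 10.12, with SP below DN cells. None of these genes passed.

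Other markers moved with these differences. Of the 6 genes of naive and circulating cells 5 were lower in DP than DN cells (median -3.45), while Itgae was 4.46 higher. Cd69 did not pass between the CD69+ and CD69- cells of this table: it averaged 12.21 in DP and 11.91 in SP libraries, against 11.94 in DN libraries (adjusted p = 0.112 and 0.86). The 11 measured myeloid genes, centred on their means, averaged 0.95 in DP libraries (0.80 to 1.04) and -0.21 in SP libraries (-0.44 to 0.10), against -1.10 in DN libraries, and 8 of 11 were called higher in DP than DN cells (median 2.19). Il6ra, Il10ra and Ifngr1 are also expressed by myeloid cells. The part of these markers was not tested.

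**Figure D4:**
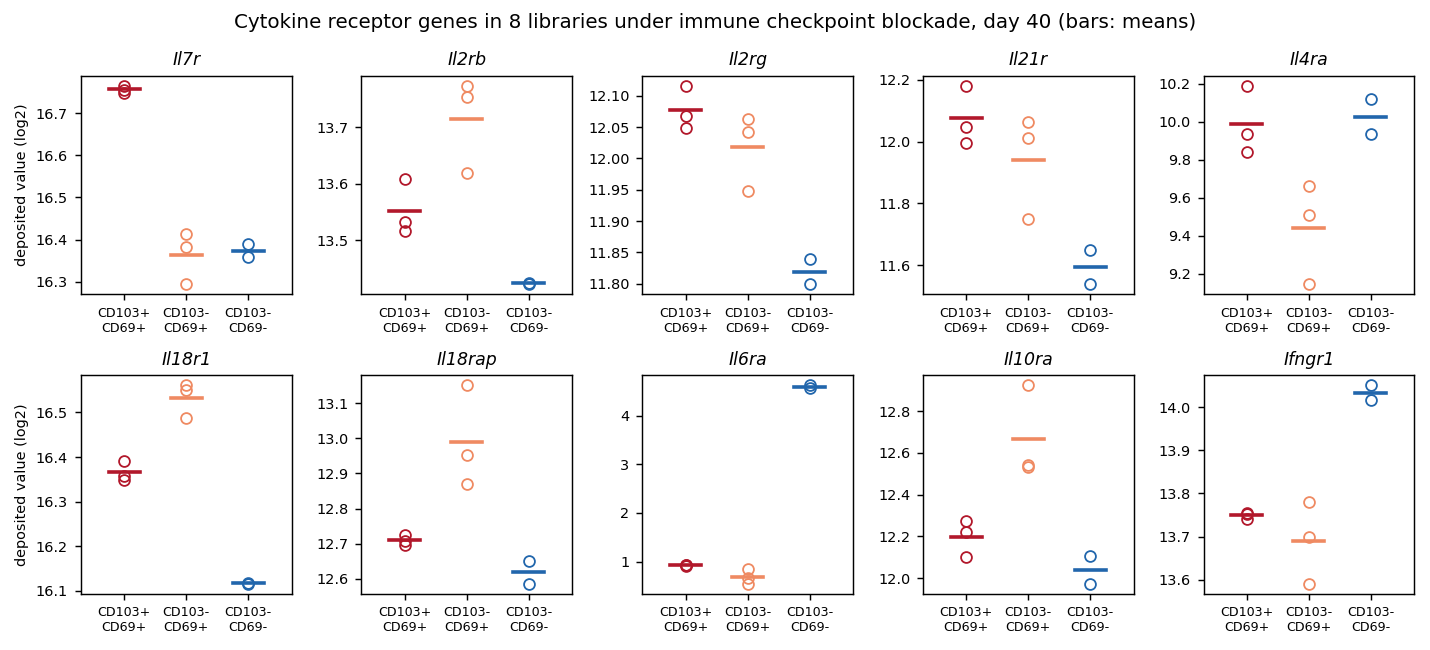
Deposited log2 values (vertical axis) of the 10 receptor genes in the 8 ICB libraries of day 40, for DP, SP and DN cells. Circles are libraries and bars means; Il6ra lies below 1 in all DP and SP libraries and at 4.56 and 4.62 in the DN libraries.

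The genes around these receptors were described from a list of 60 (other receptor chains, ligands and decoys, kinases and STATs, adaptors of the IL-18 receptor, feedback inhibitors and targets), of which 49 were measured in untreated tumors. Between DP and DN cells 6 were higher and 7 lower, with a median of -0.04, where 8.81% of all genes were higher and 10.7% lower. Il2ra, the high-affinity IL-2 receptor chain, was 0.57 higher, Tgfbr1, a TGF-beta receptor, 0.71 higher, and Stat5a, which acts below IL-2, IL-7 and IL-15, 0.47 higher. Stat4, which acts below IL-12, was lower (-0.44, limma, adjusted p = 0.000115), and Ifng (-0.71), Il27ra (-0.47), Il17ra (-0.40), Jak1 (-0.26) and Il10rb, the partner of Il10ra (-0.27), were lower. None of 5 adaptors of the IL-18 receptor was lower beside its 2 lower chains, and Irak2 was 0.56 higher.

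Between SP and DN cells 9 of the 49 were higher and 5 lower (median 0.04), where 11% of all genes were higher and 8.32% lower. The phosphatase Ptpn6 (0.62, limma, adjusted p = 1.85e-05), Il2ra (0.78), the IL-12 receptor chains Il12rb1 (0.60) and Il12rb2 (0.66) and the feedback inhibitor Cish (0.38) were higher, and Il15ra, which presents IL-15, was lower (-0.53). Il2ra is also a marker of regulatory T cells, and 2 of 4 genes of CD4+ and regulatory T cells were higher in SP than DN cells (median 0.69), whose part was not tested. Between DP and SP cells, where 3.48% of all genes passed, 1 was higher, Stat5a (0.45), and 8 lower, among them Stat4 (-0.54), Ifng (-1.05), Il12rb1 (-0.55), Bcl2 (-0.41) and Cish (-0.42); over weeks 2 to 6 none was called by limma in that comparison. At week 6 against week 1 in DP cells, where 25% of all genes passed, 15 were higher and 3 lower, with Stat4 (1.76), Cish (1.95), Ifng (1.96), the survival gene Bcl2 (1.35), Socs1 (1.28) and Jak3 (0.96), the kinase bound to Il2rg, among the higher.

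In spleen EM against Naive cells, where 24.6% of all genes passed, 10 of the 49 were higher and 9 lower, with Ifng (3.94), Il2ra (3.52) and Il12rb1 (2.54) among the higher and Il6st, the gp130 partner of Il6ra (-1.62) and Socs3 (-2.11) among the lower. Il6ra and Il6st were thus both lower in EM than Naive cells. In CM against Naive cells, where 18.8% of all genes passed, 13 were higher, Bcl2 (1.13) among them, and 7 lower. Between DP and EM cells, where 29.7% of all genes passed, 13 were higher, with Cish (1.52, limma, adjusted p = 4.92e-08) and Stat3 (0.88) among them, and 8 lower. Under ICB 50 of the 60 were measured, and 7 were higher and 4 lower in DP than DN cells, where 7.49% of all genes passed: Il2ra (2.22), Socs2 (1.60), Cish (1.57) and Il12rb1 (1.13) were higher, and Il6st (-2.12), Socs3 (-1.18) and Jak1 (-0.46) lower. In SP against DN cells, where 3.83% passed, 4 were higher and 3 lower, and in DP against SP cells none was called by limma.

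Genes with the pattern most like each receptor were taken by Pearson's r over the 15 group means of the untreated table, as a description of means that share libraries and scaling. Il18rap was nearest to Ccl5 (r = 0.972), a chemokine of effector cells, and Cxcr3 (0.941), a chemokine receptor of effector and memory cells. Il2rb was nearest to RP23-285C18.2 (0.976), Gcnt1 (0.974) and Runx3 (0.961), a transcription factor of CD8+ T cells. Il7r was nearest to Arl4c (0.951), Ms4a6b (0.945) and Dgka (0.938), Il21r to Neurl3 (0.955) and Nedd9 (0.933), and Il6ra to Prrg4 (0.955) and Man1c1 (0.940). Il4ra had the least close neighbours, Traf3 (0.803) and Lyn (0.754). Among the receptors themselves the chains of the IL-18 receptor ran together (r = 0.848 over 15 groups), as did Il2rb and Il10ra (0.816), and Il2rb ran against Il6ra (-0.794). For Il4ra and Il21r, the neighbours on chromosome 7, r was 0.427.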

How the data were processed

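Libraries were made with QuantSeq 3' FWD from 10 ng of RNA of sorted cells, per the labels' protocols. The submitters' processing notes list HISAT2, HTSeq and mm10 and give no version of the tools. The values were normalized by the authors before they were deposited, as 43 untreated and 8 ICB libraries in separate tables, and were read here as log2 values; the scale is an inference from negative values and the span, and the normalization is not given in the sources used here. The number of reads per library is unknown, so no counting error or detection limit is given.

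Each table was fitted apart with limma 3.58.1 (R 4.3.3, statmod 1.5.0): group means, moderated tests with the trend and robust options, p-values adjusted by Benjamini-Hochberg over each whole table, and a call at an adjusted p below 0.05. The spread was estimated over all groups of a table, and pooled tumor comparisons weighted weeks equally. Residuals span 18 of 28 directions in the untreated values and 2 of 5 in the ICB values, so residual degrees of freedom were multiplied by 0.643 and 0.4 and variances divided by the same. The code was tested on simulated data. No filter on low values was applied.

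The receptor genes and the gene lists were chosen with earlier results of these data known. Named genes beyond the receptors are called genes of those lists and, by a fixed rule, the 3 genes nearest to each receptor in pattern, of which some are given. Alternatives were the design-based degrees of freedom, no trend option, quantile scaling, median rescaling, a low-value filter, the compared groups alone, a replicate block, the library code run as a term, weeks 2 to 6 alone, each library left out, and, chosen after seeing the data, near-identical libraries averaged.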

Additional observations from a re-analysis of the deposited data

Results flagged for a closer look

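In DP cells of week 2, Il2rb had 8.01 in replicate 2, far below the other 3 libraries of its group (8.25 to 8.27); this was the 1 group with at least 4 libraries, examined for the 10 genes, and chance gives such a gap in about 1 of 20. The other results singled out are differences between subsets that were not the same in weeks 2 to 6 as in week 1, by limma's test of the change in the difference. For DP minus DN cells these changes were 1.91 for Il2rb, 0.61 for Il2rg, 1.16 for Il21r, 1.32 for Il10ra, -1.71 for Il6ra and 0.93 for Ifngr1. For DP minus SP cells they were 1.12 for Il2rb, 0.49 for Il2rg, 0.73 for Il21r, 0.97 for Il4ra and 0.99 for Ifngr1. The week 1 DP libraries enter all of them, and the T-cell identity and epithelial values of those libraries are given above.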

How the results depend on the processing

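Of 606 values of called receptor genes under other settings, 570 kept their direction and call, 36 lost the call and 0 changed direction. Of 1008 values with 1 library left out, 956 kept both and 52 lost the call. These values belong to 69 calls of the comparisons pooled over weeks and of the spleen, week 6, change and ICB comparisons. Calls in single weeks are not among them, and weeks 2 to 6 enter only as a setting. Single-week counts were refitted only under quantile scaling, median rescaling and, at week 4, averaged libraries. The losses under other settings were 17 of 65 with the code run as a term, 5 without the trend option, 4 each under quantile scaling and weeks 2 to 6 alone, 3 under median rescaling, 2 of 26 with averaged libraries and 1 with the compared groups alone. All 17 losses with the run term were in comparisons with DN cells. Those held 8, 7, 3 and 6 called genes (DP minus DN, SP minus DN, DN minus EM, the DP minus DN change). All spleen libraries lie in codes 5 to 42, so the run term could not change the spleen differences.

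Counts of called receptor genes moved as follows. With design-based degrees of freedom they were 7 for DP minus SP (14.7% of all genes called), 3 for SP week 6 minus week 1 (13.1%), 1, 1 and 2 for week 6 minus week 2 in DP, SP and DN (7%, 6.78% and 7.05%), 3 for the SP minus DN change after week 1 (19.5%), and 6, 9 and 6 under ICB (DP minus DN, SP minus DN, DP minus SP; 45.3%, 38.8% and 24.1%). Quantile scaling gave 1 for DP minus SP (2.93%). Median rescaling gave 1 for DP minus SP (2.94%), for the SP minus DN change (5.77%) and for ICB DP minus DN (7.85%). The code run gave 3 for DP minus DN (199 of all genes, 1.88%), 1 for SP minus DN (116, 1.1%), 1 for DN minus EM (2.49%) and 2 for the DP minus DN change (6.24%). The compared groups alone gave 9 for EM minus CM (35%), 5 for SP week 6 minus week 1 (17.3%), 1 for DP week 6 minus week 2 (9.69%), 3 for the SP minus DN change (16.5%) and 6 for ICB DP minus DN (35.4%). Weeks 2 to 6 gave 0 for DP minus SP (0.417%), no trend option gave 0 for ICB DP minus DN and SP minus DN (0% each), and averaged libraries gave 1 for ICB DP minus DN (6.07%).

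Same-numbered libraries did not deviate together throughout: of 39 pairs 9 had r above 0.1 and 17 below 0 (-0.542 to 0.861). Between DP and SP libraries of a week no pair was below 0. Their r ran from 0.00968 at week 6 to 0.861 at week 4. Whether same-numbered DP and SP samples share an origin was not tested, and the DP minus SP comparisons treat them as separate samples. Neighbouring library codes do not always share a number. At week 4 codes 7 and 8 are DP replicate 1 and SP replicate 2. In spleen codes 29, 30 and 31 are Naive replicate 1, CM replicate 2 and EM replicate 1. Libraries were not paired by code, so pairing by number may miss samples of a shared origin. With the number as a replicate block the counts were 1 for SP week 6 minus week 1 (4.94%), 2 for the SP minus DN change (9.99%) and 4 each for ICB DP minus DN (13.9%) and SP minus DN (8.39%).

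With 1 library left out at a time the counts ranged over 7 to 8 for DP minus DN, 5 to 7 for SP minus DN, 1 to 3 for DP minus SP, 6 to 6, 5 to 6 and 3 to 4 for EM minus Naive, CM minus Naive and EM minus CM, 5 to 7, 5 to 6 and 3 to 4 for DP, SP and DN minus EM, 5 to 6, 0 to 1 and 0 to 1 for week 6 minus week 1 in DP, SP and DN, and 0 to 0 for week 6 minus week 2 in each. They were 4 to 6, 0 to 2 and 5 to 6 for the changes after week 1 (DP minus DN, SP minus DN, DP minus SP), and 1 to 2, 0 to 3 and 0 to 0 under ICB. The shares of all genes called in these fits are not given here, so the ranges describe the counts alone. The cause was not tested in any of these. With no read counts, depth limits could not be set.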
